A study of Homo sapiens with 4 samples.

Results

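The members are 7 mature microRNAs (miRNAs) of the miR-31, miR-135 and miR-224 families, which are often raised in colorectal tumours: hsa-miR-31-5p, hsa-miR-31-3p, hsa-miR-135a-5p, hsa-miR-135b-5p, hsa-miR-135b-3p, hsa-miR-224-5p and hsa-miR-224-3p. They were matched by name, and all 7 were among the 1882 names listed for every library, out of 2080 names in all. The miR-31 and miR-135 members were chosen by their measured ratios of spheres to parental cells, which ran in opposite directions in the 2 cell lines, so those ratios describe the choice and were not tested. Small RNA was sequenced from HT29 and HCT15, 2 established human colorectal adenocarcinoma lines. HT29 parental cells grew in DMEM and HCT15 parental cells in RPMI, both with fetal bovine serum. The spheres of both lines grew in DMEM-F12 with N2 Plus Supplement, bFGF and EGF, without added serum named in the labels, and the submitters describe them as cancer stem cells derived from spheres. The labels give no time in sphere medium. Each line and culture had 1 library, 4 in all, so no difference here has a replicate check. Spheres and parental cells differed in medium, serum and growth form at once, so the parts these play cannot be told apart, and neither can fewer cells of a kind and less of a miRNA per cell.

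A miRNA guides the Argonaute protein to messenger RNAs that pair with its seed, bases 2 to 8 from its 5′ end, and lowers their output. Its precursor hairpin can yield a mature miRNA from each side, the 5p and the 3p arm, of which one usually dominates. In colorectal cancer, miR-31 is known for targeting inhibitors of RAS signalling such as RASA1. miR-135a and miR-135b target APC, the brake on Wnt signalling that colorectal tumours commonly lose, and miR-224 targets SMAD4 of the TGF-beta pathway.

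The mature sequences below (RefSeq, GRCh38.p14, 5′ to 3′) are shown because their seeds group the members and because miR-135a-5p and miR-135b-5p are nearly the same molecule. Capitals mark the seed. Of the 7 names, 6 had a mature entry.
hsa-miR-31-5p: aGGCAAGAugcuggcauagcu
hsa-miR-135a-5p: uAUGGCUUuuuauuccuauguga
hsa-miR-135b-5p: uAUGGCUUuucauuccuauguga
hsa-miR-135b-3p: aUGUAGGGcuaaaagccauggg
hsa-miR-224-5p: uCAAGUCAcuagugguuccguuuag
hsa-miR-224-3p: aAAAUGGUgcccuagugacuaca
miR-135a-5p and miR-135b-5p had the seed AUGGCUU in common, and no other seed was shared among these 6. The pair was identical at 22 of 23 positions, with the single substitution U11C (the base of miR-135a-5p, the position from its 5′ end, then the base of miR-135b-5p). It lies outside the seed, and a read with an error there can be assigned to either.

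In GENCODE 29 (GRCh38), MIR31 (chromosome 9, 21512115 to 21512185, minus strand) lay in an intron of its host MIR31HG, a long non-coding RNA gene. MIR135B (chromosome 1, 205448302 to 205448398, minus strand) lay in an intron of LEMD1. miR-135a-5p comes from both MIR135A1 (chromosome 3, 52294219 to 52294308, minus strand), intronic to GLYCTK-AS1, and MIR135A2 (chromosome 12, 97563812 to 97563911, plus strand), intronic to RMST. MIR224 (chromosome X, 151958578 to 151958658, minus strand) overlapped an exon of a GABRE transcript. MIR452 lies 969 bases from MIR224 in the same host and strand (chromosome X, 151959628 to 151959712). The deposited data were made on hg19, from which no position was taken.

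Listed miRNA reads came to 5806540 and 12794274 in HT29 parental cells and spheres. HCT15 was deposited as RPKM, from which 3185961 and 2319187 reads were recovered. Levels are given in CPM, a name's reads divided by its library's listed miRNA reads and multiplied by 1000000. CPM was not scaled by length, though the recovery of HCT15 reads from RPKM used a term for the mature length. A count of 0 allows up to 3 reads, or 0.517, 0.234, 0.942 and 1.29 CPM in these 4 libraries in the same order. Intervals are exact 95% intervals of counting error only, since reads carry no molecular identifiers. Among 8 epithelial marker miRNAs none was at 0 in any library, and their summed level was 170867 and 234361 CPM in HT29 and 24284 and 22662 CPM in HCT15. The 5 stromal markers summed to 7.06 and 8.21 CPM in HT29 and 23.0 and 16.1 CPM in HCT15, with miR-214-3p at 0 throughout and miR-145-5p at 0 except in HT29 parental cells. The 5 blood-cell markers summed to 405 and 378 CPM in HT29, nearly all of it miR-142-3p (381 and 367 CPM), and to 45.8 and 36.7 CPM in HCT15, with miR-223-3p at 0 throughout.

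hsa-miR-31-5p, the major product of its hairpin, was the most abundant member in every library. In HT29 it was at 13634 CPM in parental cells (79168 reads, interval 13540 to 13729) and at 3241 CPM in spheres (41472 reads, interval 3210 to 3273). HCT15 parental cells held 6103 CPM (19443 reads, interval 6017 to 6189) and HCT15 spheres 10544 CPM (24454 reads, interval 10413 to 10676). The HT29 spheres held the least, as they did under all 6 scalings. Which library held the most depended on the scaling: HT29 parental cells per listed read, but HCT15 spheres after TMM scaling (12514 against 10698 CPM in HT29 parental cells). It ranked 18th and 41st among the listed names in HT29 parental cells and spheres and 27th and 19th in those of HCT15.

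The log2 ratio of spheres over parental cells, after scaling by TMM (trimmed mean of M-values) over the 4 libraries, was -1.52 in HT29 (interval -1.53 to -1.50) and 1.14 in HCT15 (1.11 to 1.17). The HCT15 ratio was at least 2-fold under TMM, but 0.79 with scaling by total reads.

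hsa-miR-31-3p, the minor arm, showed the same 2 directions at far lower levels. It was at 1219 CPM (7081 reads) in HT29 parental cells and 105 CPM (1346 reads) in HT29 spheres, a log2 ratio of -2.98 (interval -3.06 to -2.90). The HCT15 cultures had 6.91 CPM (22 reads) and 16.4 CPM (38 reads), a log2 ratio of 1.55 (interval 0.80 to 2.42). Both HCT15 libraries were thus below the lower of the HT29 libraries.

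**Figure D1:**
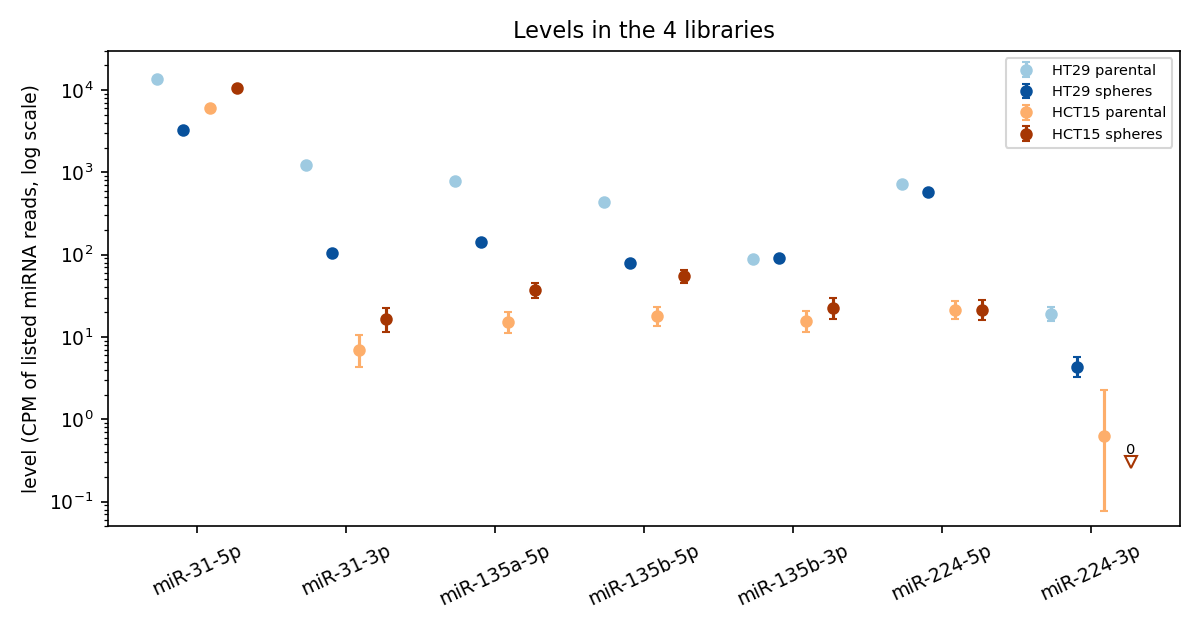
Level of each member in CPM of listed miRNA reads (log axis) in the 4 libraries; points are single libraries, bars are exact 95% intervals of counting error, and the open triangle marks a listed 0. miR-31-5p lies above all other members in each library, while the miR-135 and miR-224 members lie higher in both HT29 libraries than in both HCT15 libraries.

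hsa-miR-135a-5p was at 783 CPM (4544 reads) in HT29 parental cells and 144 CPM (1839 reads) in HT29 spheres, a log2 ratio of -1.89 (interval -1.97 to -1.81). Its HCT15 levels were 15.2 CPM in parental cells (interval 11.1 to 20.0) and 36.9 CPM in spheres (29.7 to 45.8), a log2 ratio of 1.61 (interval 1.12 to 2.19). hsa-miR-135b-5p went from 438 CPM (2541 reads) in the parental HT29 library to 79.3 CPM (1014 reads) in the sphere library, a log2 ratio of -1.91 (interval -2.02 to -1.80). HCT15 parental cells and spheres had 18.0 CPM (interval 13.6 to 23.2) and 54.9 CPM (45.7 to 65.2), a log2 ratio of 1.93 (interval 1.50 to 2.44). For both miRNAs, HT29 parental cells were the highest library and HCT15 parental cells the lowest.

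The HCT15 values of this pair were not whole reads on their own. They came to 48.5 reads of miR-135a-5p and 57.5 of miR-135b-5p in parental cells, and to 85.7 and 127 in spheres. Their sums were whole within 0.02 reads, at 106 and 213, which is how reads divided between the 2 names would appear. miR-135b-5p made up 54.2% of the pair's reads in HCT15 parental cells (interval 43.8 to 63.5) and 59.8% in spheres (52.7 to 66.3), against 35.9% (34.7 to 37.0) and 35.5% (33.8 to 37.3) in HT29. How HT29 reads that fit both names were assigned is not given in the sources used here, so the difference in this share between the lines cannot be told apart from a difference in counting. Summed over both names, the log2 ratio was -1.90 in HT29 (summed counts of 7085 and 2853) and 1.80 in HCT15. An HT29 read that fits both names may stand under each, so the HT29 sums may exceed the number of reads. The summed level was 1220 and 223 CPM in HT29 and 33.3 and 91.8 CPM in HCT15. The directions in the 2 lines thus did not depend on how the pair's reads were divided.

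hsa-miR-135b-3p, the other arm of the miR-135b hairpin, did not follow its 5p arm in HT29. It was at 88.2 CPM (512 reads, interval 80.7 to 96.2) in parental cells and 90.2 CPM (1154 reads, interval 85.1 to 95.6) in spheres, which overlap. Its log2 ratio in HT29 was 0.59 (interval 0.44 to 0.74) with TMM and 0.03 with total reads. In HCT15 it was at 15.7 CPM (50 reads) and 22.4 CPM (52 reads), a log2 ratio of 0.85 (interval 0.28 to 1.45).

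The hairpin of MIR135B (GRCh38.p14, chr1:205448302-205448398, minus strand, 97 bases, RefSeq) is shown because its arms moved apart; capitals mark miR-135b-5p, then miR-135b-3p.
MIR135B: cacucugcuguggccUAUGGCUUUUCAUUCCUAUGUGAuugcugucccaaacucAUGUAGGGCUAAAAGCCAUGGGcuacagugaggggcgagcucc

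The share of each arm needs no scaling between libraries. For miR-135b, the 3p arm made up 16.8% of the reads of both arms in HT29 parental cells (512 of 3053 reads, interval 15.5 to 18.1) and 53.2% in HT29 spheres (51.1 to 55.3). In HCT15 it made up 46.5% in parental cells (37.0 to 56.6) and 29.0% in spheres (22.5 to 36.3). The intervals of parental cells and spheres did not overlap in either line, and the directions were opposite. The 3p arm had more reads than the 5p arm in HT29 spheres, while in HCT15 parental cells the interval included equal shares. These shares depend on how reads were divided between miR-135a-5p and miR-135b-5p. With the reads of both names as the 5p arm, the 3p share was 6.74% and 28.8% in HT29 parental cells and spheres, and 32.1% (24.8 to 40.0) and 19.6% (15.0 to 24.9) in HCT15. The HT29 shares would be higher if reads that fit both names were counted under each. The directions were the same, but the HCT15 intervals then overlapped. Among the 161 hairpins of HT29 with at least 100 reads over both arms in each library, the share of the miR-135b arms moved most, by -36.5 percentage points for the 5p arm, against a median size of 1.33 points and 30 hairpins over 10 points. In HCT15 it ranked 3rd of 115, at 17.5 points for the 5p arm, against a median size of 0.698 points and 10 hairpins over 10 points. These ranks use the same 5p reads that chose the member and are a description.

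For miR-31 the 3p share was 8.21% in HT29 parental cells (interval 8.03 to 8.40) and 3.14% in spheres (2.98 to 3.31). It was 0.113% (0.0708 to 0.171) and 0.155% (0.110 to 0.213) in HCT15, where the intervals overlapped. The hairpin thus gave 11.2 and 30.8 reads of the 5p arm per read of the 3p arm in HT29, and 884 and 644 in HCT15. That difference between the lines, made from files that were processed separately, was not tested. For miR-224 the 3p share was 2.54% (2.09 to 3.06) and 0.752% (0.569 to 0.975) in HT29. It was 2.86% of 70 reads in HCT15 parental cells, while 0 of 50 reads in HCT15 spheres allows a share of up to 6% by the limit of 3 reads (the exact interval ends at 7.11%). In HT29 spheres the 3p share was thus lower than in parental cells for miR-31 and miR-224, and higher for miR-135b.

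**Figure D2:**
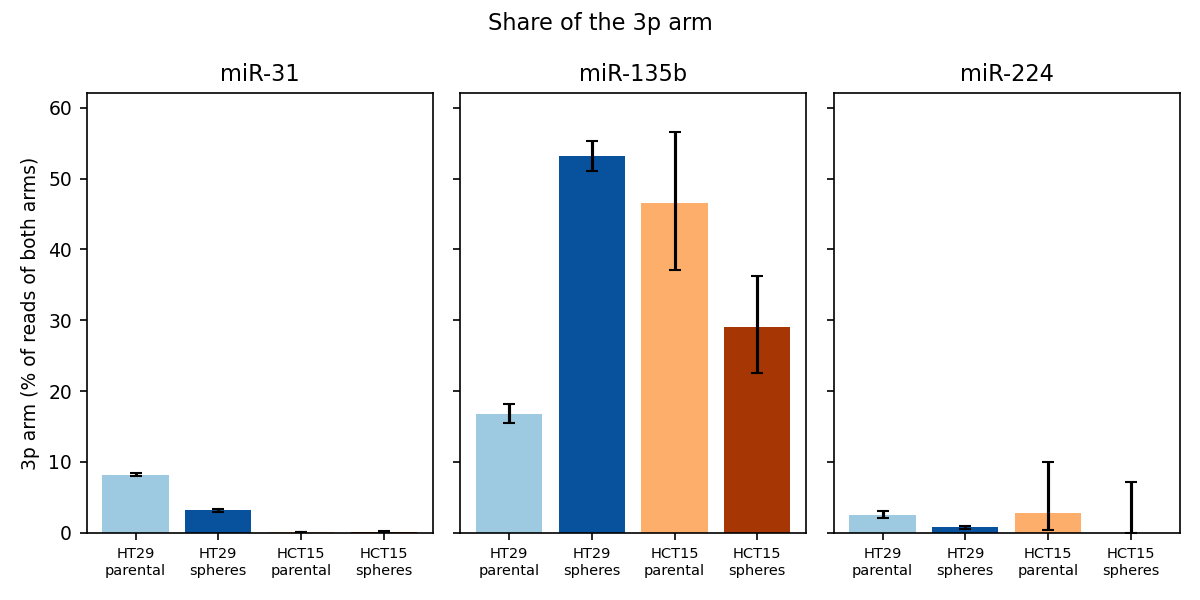
Share of the 3p arm among the reads of both arms (percent, linear axis from 0) for the miR-31, miR-135b and miR-224 hairpins in the 4 libraries; bars are single libraries and error bars exact 95% intervals of counting error. The miR-135b share runs from 16.8% to 53.2% in HT29 and from 46.5% to 29.0% in HCT15, while the other hairpins stay under 10% in all 4 libraries.

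hsa-miR-224-5p was at 726 CPM (4215 reads, interval 704 to 748) in HT29 parental cells and 578 CPM (7391 reads, interval 565 to 591) in HT29 spheres. In HCT15 it was at 21.3 CPM (68 reads, interval 16.6 to 27.1) and 21.6 CPM (50 reads, interval 16.0 to 28.4). The level differed between the lines and hardly by culture within a line. The difference between the lines, made from files that were processed separately, was not tested. Its log2 ratio was 0.23 in HT29 (interval 0.17 to 0.28) and 0.36 in HCT15 (-0.19 to 0.91), both under 2-fold. In HT29 the sign turned with the scaling, from -0.33 with total reads to 0.48 with the upper quartile.

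hsa-miR-224-3p, the minor arm, was at 18.9 CPM (110 reads) in the parental HT29 library and 4.38 CPM (56 reads) in the sphere library, a log2 ratio of -1.50 (interval -2.05 to -1.08). The HCT15 libraries held 2 reads of it (parental) and 0 (spheres), too few for a ratio. A listed 0 in HCT15 spheres can also be a dropped single read, since there 4 names stood at 1 read and 35 at 2, against 103 and 51 in HCT15 parental cells.

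miR-452, whose hairpin shares the host gene of miR-224, gave higher reads in HT29 than in HCT15, as miR-224 did. miR-452-5p went from 3313 CPM in parental HT29 cells to 5366 CPM in HT29 spheres (log2 ratio 1.25, interval 1.23 to 1.27), and its reads went from 4.56 to 9.29 per read of miR-224-5p. The HCT15 libraries held 10 and 2 reads of it, with an interval of the log2 ratio from -4.74 to 0.72, which includes 0. miR-452-3p was at 18.1 and 17.4 CPM in the HT29 libraries, and both HCT15 files list it at 0. The other arm of miR-135a, listed as miR-135a-3p, had 1 read in HT29 parental cells and 0 in the other 3 libraries, which allows no ratio.

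Set side by side, 6 members averaged 50 CPM or more over the HT29 libraries, and 4 of these were lower by 2-fold or more in the spheres: both miR-31 arms, miR-135a-5p and miR-135b-5p. Of all 226 miRNAs at that level, 19.5% were at least 2-fold lower. 0 of the 6 were at least 2-fold higher, as 12.8% of the 226 were. With a minimum of 10 CPM, 5 of the 7 were at least 2-fold lower, with miR-224-3p added, and 0 higher, where 19.1% and 12.7% of 361 miRNAs were. miR-224-3p met this minimum only through its parental cells (18.9 CPM, against 4.38 in spheres), so the filter partly set its direction. Among the members, in HCT15 only miR-31-5p reached a mean of 50 CPM, and it was at least 2-fold higher, as were 4.39% of 205 miRNAs, while 1.95% were at least 2-fold lower. At a minimum of 10 CPM, 4 of 6 members were at least 2-fold higher in HCT15 spheres, the same 2 miR-31 arms, miR-135a-5p and miR-135b-5p, and 0 lower. Of 333 miRNAs at that level, 9.61% were at least 2-fold higher and 6.01% lower. The member nearest under the 2-fold line was miR-135b-3p in HCT15 (0.85) and the nearest above it was miR-31-5p in HCT15 (1.14). In HCT15, miR-135b-3p passed 2-fold higher with DESeq2 size factors (1.07) and with the upper quartile (1.08). All these counts restate the contrast that chose the members, so nothing is read from them.

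Of 252 miRNAs that averaged 10 CPM or more in each line, 7 (2.78%) were at least 2-fold lower in HT29 spheres and at least 2-fold higher in HCT15 spheres, and 4 of those 7 were the miR-31 and miR-135 members just named. These 4 were chosen by this contrast, so nothing is read from their number. In HCT15, miR-31-3p met the minimum only through its spheres (6.91 CPM in parental cells and 16.4 in spheres). With total reads miR-31-5p was under 2-fold in HCT15, at 0.79. The other 3, named after their values were seen, were miR-205-5p, known from squamous epithelia (log2 ratios -1.74 in HT29 and 5.39 in HCT15), miR-424-5p (-1.60 and 1.16) and miR-29b-3p (-1.07 and 1.36). The reverse pattern was found for 2 of the 252.

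**Figure D3:**
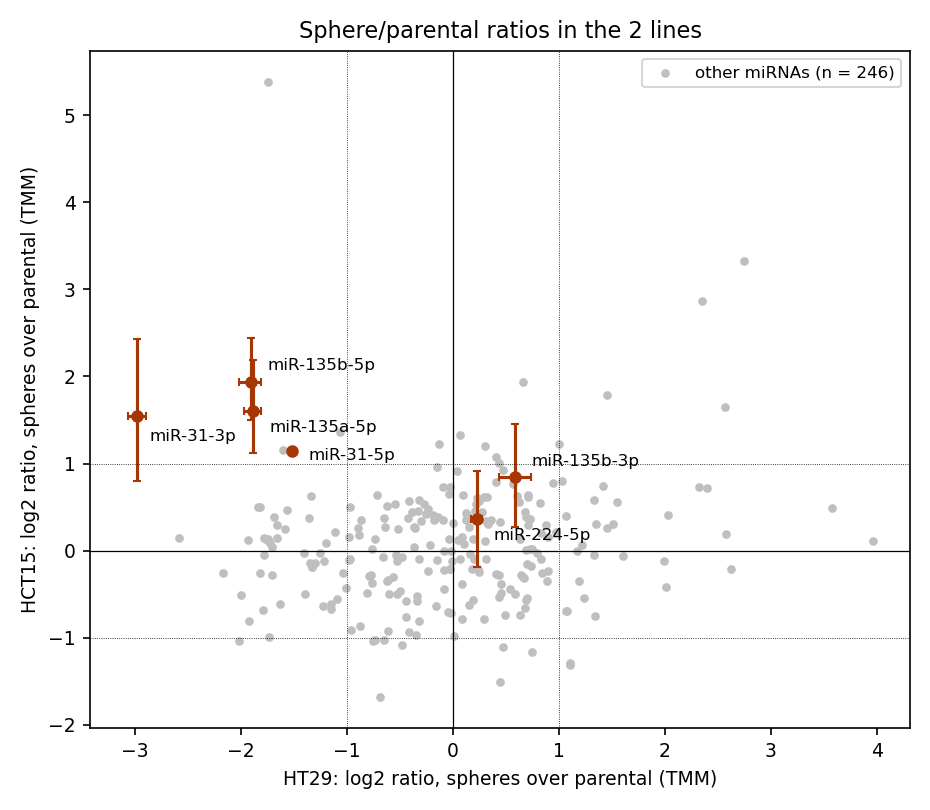
Log2 ratio of spheres over parental cells after TMM scaling in HT29 (horizontal) and HCT15 (vertical) for miRNAs that averaged 10 CPM or more in each line; grey points are the 246 other miRNAs, and coloured points are 6 members with exact 95% intervals of counting error. Both miR-31 arms, miR-135a-5p and miR-135b-5p lie in the upper left beyond the dotted 2-fold lines, while miR-135b-3p and miR-224-5p lie within them.

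Ratios between members within a library also need no scaling. miR-31-5p gave 31.2 reads per read of miR-135b-5p in HT29 parental cells (interval 29.9 to 32.4) and 40.9 in spheres (38.4 to 43.6). In HCT15 it gave 338 (263 to 451) and 192 (162 to 231). Against miR-31-5p, miR-135b-5p was thus lower in HT29 spheres and higher in HCT15 spheres than in the parental cells, with intervals that did not overlap in either line. miR-31-5p gave 18.8 and 5.61 reads per read of miR-224-5p in HT29, and 286 (225 to 368) and 489 (371 to 659) in HCT15. miR-224-5p gave 1.66 reads per read of miR-135b-5p in parental HT29 cells and 7.29 in HT29 spheres. For HCT15 the ratios were 1.18 (0.827 to 1.73) and 0.393 (0.278 to 0.550). Against miR-224-5p, both miR-31-5p and miR-135b-5p were lower in HT29 spheres and higher in HCT15 spheres, a comparison that uses no scaling. These directions reuse the reads that chose miR-31-5p and miR-135b-5p, so they are a description and nothing is read from them. In HCT15 they also rest on 68 and 50 reads of miR-224-5p.

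The order of the members differed between libraries. In HT29 parental cells it ran from miR-31-5p through miR-31-3p, miR-135a-5p, miR-224-5p, miR-135b-5p and miR-135b-3p to miR-224-3p, with no overlap between the counting intervals of neighbours. In HT29 spheres miR-224-5p stood second, followed by miR-135a-5p, miR-31-3p, miR-135b-3p, miR-135b-5p and miR-224-3p, again without overlap. In HCT15 parental cells miR-224-5p, miR-135b-5p, miR-135b-3p and miR-135a-5p followed miR-31-5p at 15.2 to 21.3 CPM, with intervals that overlapped. In HCT15 spheres miR-135b-5p and miR-135a-5p followed miR-31-5p, with intervals that overlapped, and miR-135b-3p, miR-224-5p and miR-31-3p came next at 16.4 to 22.4 CPM, also overlapping.

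The profile most like that of a member was taken as the smallest distance between log2(TMM-scaled CPM + 1) values, each centred on its own mean over the 4 libraries, among the 233 miRNAs that are no member and averaged 50 CPM or more over the 4 libraries. For miR-31-5p these were miR-502-3p (distance 0.57), miR-454-3p (0.65) and let-7e-3p (0.72), with log2 ratios of -1.68, -1.58 and -1.78 in HT29 and 0.39, 0.25 and 0.15 in HCT15. For miR-135b-5p they were miR-33b-3p (1.17), miR-326 (1.23) and miR-96-5p (1.38). The member miR-135a-5p, left out of this search, lay at 1.26 from miR-135b-5p. For miR-224-5p they were miR-935 (0.64), miR-32-5p (0.69) and miR-200c-3p (0.72). With 4 libraries, likeness describes these profiles only.

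Of a list of 15 other miRNAs commonly raised in colorectal tumours, 12 averaged 50 CPM or more in HT29, of which 3 were at least 2-fold higher and 2 lower in spheres, against 12.8% and 19.5% of all 226, with a median log2 ratio of 0.02 against -0.02. The lowest were miR-19a-3p (1772 to 342 CPM, -1.82) and miR-18a-5p (7403 to 1593 CPM, -1.66), both of the growth-promoting miR-17-92 cluster. The highest were miR-203 (1.30) and miR-552 (1.12), and the 3rd past 2-fold was miR-21-5p (1.03), named after its value was seen. With total reads these were 0.75, 0.57 and 0.48, all under 2-fold, while miR-17-5p (-1.20) and miR-96-5p (-1.10) passed 2-fold lower. The split of 3 higher and 2 lower thus became 0 and 4 of 12, where 11 and 74 of all 226 miRNAs passed. In HCT15, 9 had that mean and 0 passed 2-fold in either direction, against 4.39% higher and 1.95% lower of all 205. Their median was 0.53 against 0.09 over all miRNAs at that level. With DESeq2 size factors or the upper quartile, miR-182-5p and miR-21-5p passed 2-fold higher, up to 1.17 and 1.03. Of all 205 miRNAs, 15 were then at least 2-fold higher and 1 lower at either scaling. Under TMM, miR-182-5p (0.93) and miR-21-5p (0.80) were highest in HCT15, and miR-92a-3p (-0.09) and miR-183-5p (0.35) lowest. The sign of miR-92a-3p turned with the scaling, up to 0.14. Some of the list at 50 CPM or more in both lines had the same opposite signs as miR-31-5p, named after their values were seen. They were miR-19a-3p (-1.82 in HT29 and 0.50 in HCT15), miR-17-5p (-0.65 and 0.38), miR-20a-5p (-0.42 and 0.57) and miR-96-5p (-0.54 and 0.53). At a minimum of 10 CPM, miR-18a-5p (-1.66 and 0.29) and miR-424-5p (-1.60 and 1.16) had these signs too. Under TMM, miR-21-5p, miR-182-5p and miR-183-5p were instead above 0 in both lines, and miR-92a-3p was below 0 in both. miRNAs outside the list, such as miR-101-3p and miR-30c-5p, also had the opposite signs of miR-31-5p. The share of all miRNAs with these signs was not counted, so nothing is read from these names.

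Of 15 miRNAs commonly lowered in colorectal tumours, 5 had that mean in HT29, of which 2 were at least 2-fold higher in spheres and 0 lower, against 12.8% and 19.5% of all 226 (median 0.71 against -0.02 over all). These were miR-1 (165 to 1156 CPM, 3.36) and miR-375 (896 to 2424 CPM, 1.99). The lowest were miR-378a-3p (0.45) and miR-149-5p (0.54), whose signs turned with the scaling. In HCT15, 4 had that mean and 0 passed 2-fold in either direction, against 4.39% higher and 1.95% lower of all 205 (median -0.28 against 0.09). There miR-30a-5p was at 0.64, miR-375 at -0.12, miR-149-5p at -0.44 and miR-378a-3p at -0.49, and the sign of miR-375 turned with the scaling, up to 0.11. miR-1 was listed at 0 in both HCT15 libraries.

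**Figure D4:**
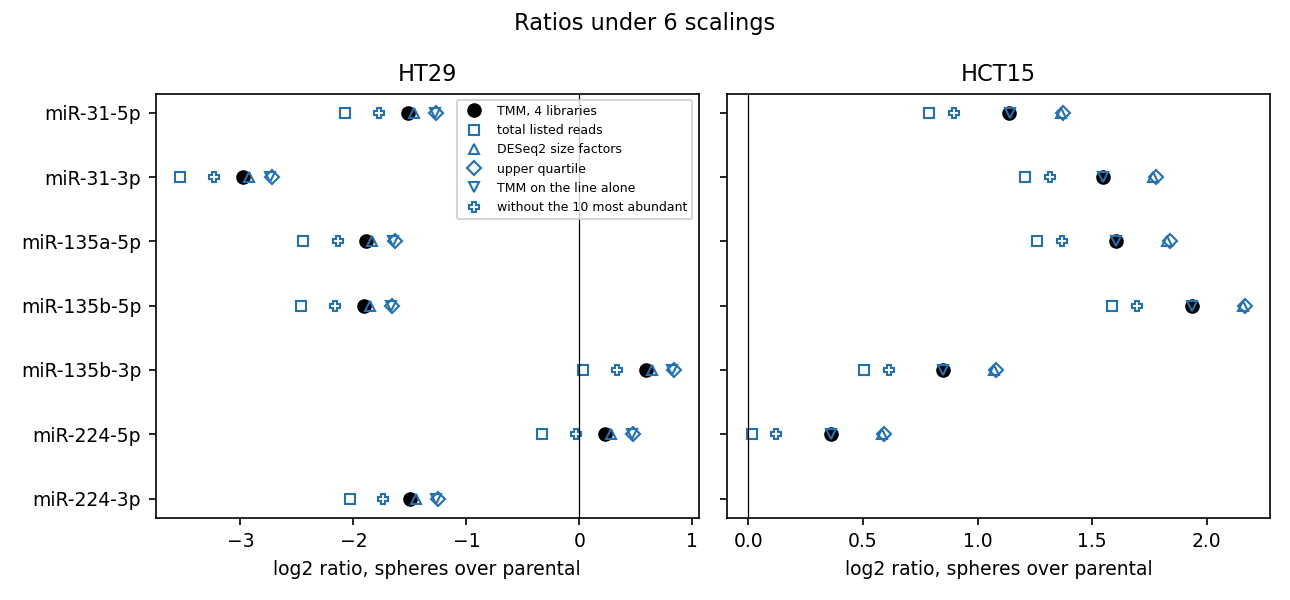
Log2 ratio of spheres over parental cells for each member in HT29 (left) and HCT15 (right) under 6 scalings; filled circles are TMM over the 4 libraries and open symbols the other 5. Both miR-31 arms, miR-135a-5p and miR-135b-5p stay below 0 in HT29 and above 0 in HCT15 under all 6, while miR-224-5p lies on both sides of 0 in HT29 (from -0.33 to 0.48).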

How the data were processed

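Total RNA was made into libraries with the TruSeq Small RNA kit, as the labels' protocols state. Per the file headers, HT29 was deposited as read counts per mature miRNA and HCT15 as RPKM, with miRBase R19 names. The submitters' processing notes name the genome build hg19. The aligner, the trimming and the treatment of reads that fit several names were not given in the sources used here. All columns of sample values belonged to these 4 libraries.

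The members, lists and comparisons were chosen with earlier results of these data known. Low HCT15 values were multiples of a step that depended on the mature length L as L/(L + 9). With this term, 72.1% of 614 values up to 200 reads in parental cells and 75.4% of 325 in spheres were whole within 0.02 reads, against 46.4% and 44.6% with 1 step for all miRNAs. The step for a 22-base miRNA was 0.162 in parental cells and 0.263 in spheres, where the commonest value was taken as 2 reads. L was the RefSeq length or, where that gave no whole reads, the single length from 17 to 27 that did. By this rule miR-224-5p had a length of 21 in the deposited values, against 25 in RefSeq. Of 979 HCT15 names above 0 in a library, 523 were whole at the RefSeq length and 113 at 1 other length. The rest, miR-135a-5p and miR-135b-5p among them, kept the RefSeq length or, where there was none, an assumed length of 22.

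Ratios used TMM from edgeR 4.0.16 (R 4.3.3) over 1882 names and a prior count of 2. Intervals were exact conditional binomial for ratios and Clopper-Pearson for shares (Python 3.11.15, scipy 1.17.1, numpy 2.4.6, pandas 2.3.3). With 1 library a group no test was made. The conversion to reads, the ratios and their intervals were run on simulated data made with the same length term and with known steps. That run cannot check the length term, the step values or the reads divided between names in HCT15. Named miRNAs were the members, the 3 nearest profiles, the other products of the miR-135a and miR-224 loci, and up to 4 per list and line (the 2 highest and 2 lowest ratios at 50 CPM or more). Alternatives were 5 other scalings, including size factors from DESeq2 1.42.0, prior counts of 0.5 and 10, other minimum levels and other read steps.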

Additional observations from a re-analysis of the deposited data

Results flagged for a closer look

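Of the members with a ratio in both lines, 4 moved in opposite directions in HT29 and HCT15. The difference between the lines' log2 ratios (HT29 minus HCT15) was -2.66 for miR-31-5p, -4.52 for miR-31-3p, -3.49 for miR-135a-5p and -3.84 for miR-135b-5p. These members were chosen for that pattern, and the difference was not tested, since each line has 1 library per culture. By sign alone, the change in the share of the 5p arm was also opposite in the lines for miR-135b and miR-31. How many of all hairpins had opposite signs was not counted. The change from parental cells to spheres in HT29 minus that in HCT15 was -53.97 percentage points for miR-135b and 5.11 points for miR-31, neither of them tested. The miR-135b shares depend on how reads were divided between miR-135a-5p and miR-135b-5p. With both names as the 5p arm, the directions were the same but the HCT15 intervals overlapped. For miR-31 the HCT15 change (-0.042 points) is within counting error.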

How the results depend on the processing

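Scaling moved all ratios of a line together. Against TMM the shift was -0.56 in HT29 and -0.35 in HCT15 with total reads, 0.06 and 0.23 with DESeq2 size factors, 0.25 and 0.23 with the upper quartile, 0.24 and 0.00 with TMM on the line alone, and -0.25 and -0.24 without the 10 most abundant miRNAs. In that order miR-31-5p was at -2.07, -1.46, -1.27, -1.28 and -1.77 in HT29. In HCT15 it was at 0.79 with total reads, 1.37 with DESeq2 size factors, 1.37 with the upper quartile and 0.90 without the 10 most abundant. miR-135b-5p in HT29 was at -2.46 with total reads, -1.65 with the upper quartile, -1.67 with TMM on the line alone and -2.16 without the 10 most abundant; in HCT15 it stayed within its counting interval under every setting run. miR-224-5p in HT29 reversed, to -0.33 with total reads and -0.028 without the 10 most abundant. No other member's ratio changed sign under these settings.

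The background counts moved more. miRNAs at least 2-fold higher in HT29 spheres (29) numbered 11 with total reads, 18 without the 10 most abundant, 46 from 10 CPM and 140 with no minimum. Those lower (44) numbered 74, 69 and 148 with total reads, from 10 CPM and with no minimum. In HCT15, those higher (9) numbered 5 with total reads, 15 with DESeq2 size factors, 15 with the upper quartile, 32 from 10 CPM and 66 with no minimum. Those lower (4) numbered 22, 1, 1, 20 and 302 in the same order and 11 without the 10 most abundant. With miR-135a-5p and miR-135b-5p summed, miR-31-5p gave 11.2 and 14.5 reads per read of the pair in the HT29 parental and sphere libraries, and 183 and 115 in those of HCT15. With a pseudocount of 10, 2 of the 3 nearest profiles remained for miR-135b-5p, 1 of 3 for miR-224-5p and 3 of 3 for miR-31-5p. With both names as the 5p arm of miR-135b, its 3p share was 6.74% and 28.8% in the HT29 parental and sphere libraries and 32.1% and 19.6% in those of HCT15. The single-step reads and the summed pair, other than in the ratio to miR-31-5p, were chosen as alternatives after seeing the data. Low depth limits miR-31-3p, miR-135 and miR-224 in HCT15, where each had at most 127 reads. Leaving out arms with 3 reads or fewer removes the miR-224 shares in HCT15 and leaves the other arm shares as they are. No replicate could be left out. No paired analysis was possible because each group has 1 library and no test was made.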
